A study of Ovis aries with 6 samples.

Results

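Of 10 named genes that sense fatty acids or move them through the cell, 9 were found among the 26741 genes of the count tables by matching NCBI gene numbers to gene symbols. They were the nuclear receptors PPARA, PPARD and PPARG, the fatty acid binding proteins FABP4 and FABP5, the acyl-CoA synthetases ACSL1 and ACSL4, the mitochondrial entry enzyme CPT1A and the secreted lipase inhibitor ANGPTL4. CD36 was not analysed here. The list was drawn up by function. The libraries came from nuclei of the rumen epithelium of 6 male lambs, sampled from the ventral region of the rumen after slaughter and frozen in liquid nitrogen. The group labelled MGNS had 3 animals and so did the group labelled MGHS, with 1 droplet library per animal. The series concerns supplementary feeding of grazing sheep, but the labels do not spell out these group names, and no age, breed or diet of the animals is stated in the sources read for this work. The comparison of MGHS with MGNS was the only one that the labels set up, and it was made within each class of nuclei.

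The PPARs are ligand-activated transcription factors that pair with retinoid X receptors, bind fatty acids and their derivatives, and regulate genes of fatty acid transport, storage and oxidation. Fatty acids entering a cell are carried by binding proteins, joined to coenzyme A by acyl-CoA synthetases, and then oxidised, stored or built into membranes. The rumen wall is a stratified epithelium that absorbs and metabolises the short-chain fatty acids made by fermentation, and it is renewed from a basal layer that feeds spinous and granular layers above it.

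The 6 libraries held 8018 to 14366 barcodes and 34418856 to 59997793 unique molecular identifiers (UMIs, counted molecules) each, and 41822 nuclei were retained in all. Although the labels call the material epithelial cells, 13558 of these nuclei were keratinocyte-like by their markers, and most others had endothelial, stromal, glial or immune markers. The nuclei were grouped into basal-like, cycling, spinous-like and granular-like keratinocytes, blood and lymphatic endothelial-like, fibroblast-like, smooth muscle or pericyte-like, glia-like, macrophage or dendritic-like, neutrophil-like, T or NK-like and B or plasma-like classes. Clusters 8 and 16, with 757 and 312 nuclei, stayed unnamed and were not fitted. One further cluster of 5462 nuclei, cluster 11, was fitted but stayed unnamed, and 3290 of its nuclei came from MGHS animal 3. Its highest marker scores, as mean log2 ratio to the other clusters, were 1.48 for granular and 1.22 for spinous keratinocyte markers. Cluster 11 was not counted among the 13558 keratinocyte-like nuclei. Its median was 587 UMIs per nucleus, and the glia-like and neutrophil-like nuclei also had low medians, 431 and 765. Pairs of libraries shared 19 to 49 cell barcodes. Clusters and class names were rebuilt here. Counts were summed per animal and class and are given as counts per 1000000 (CPM), scaled with TMM factors computed within each class. Values are listed for animals 1, 2 and 3 of each group in that order, means are ± SD over animals, and fold changes are log2 of MGHS over MGNS. A gene was called when its edgeR quasi-likelihood p, adjusted by the Benjamini-Hochberg method over all genes tested in that class, was under 0.05. Levels were not compared between genes, because counts were not divided by transcript length.

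None of the 9 genes was called in any of the 15 fits, which covered all keratinocyte-like nuclei together and 14 single classes. Few genes of any kind were called there. The share was 0.0% of 16319 genes tested in all keratinocyte-like nuclei, where 2859 genes had an unadjusted p under 0.05 and DESeq2 called 966. It was 0.0223% in basal-like, 0.261% in cycling, 0.0398% in spinous-like and 0.0% in granular-like keratinocytes, and 0.175% in cluster 11. It was 0.0106% in blood endothelial-like, 0.0% in lymphatic endothelial-like, 0.0805% in fibroblast-like, 0.0% in smooth muscle or pericyte-like and 0.0% in glia-like nuclei. Among immune classes it was 0.0% in macrophage or dendritic-like, 0.0% in neutrophil-like, 0.00851% in T or NK-like and 0.0% in B or plasma-like nuclei. The group differences below are therefore given as values with their errors.

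The 3 receptors had different distributions over the keratinocyte layers, and PPARG and PPARD ran in opposite directions. PPARG, the receptor best known from fat cells and from differentiating epithelia, was highest in basal-like nuclei at 1084 ± 189.8 CPM and in cycling keratinocytes at 924 ± 172 CPM. It was lower in spinous-like nuclei, at 607 ± 229.5 CPM, and lowest among the layers in granular-like nuclei, at 51.5 ± 12.7 CPM. From basal-like to granular-like nuclei its log2 ratio averaged -4.39 (range over animals -4.74 to -4.00), and most of that step lay between the spinous-like and granular-like nuclei, where it averaged -3.49 (range over animals -4.25 to -3.04). PPARD, the receptor with the broadest tissue distribution, was 286 ± 21 CPM in basal-like, 464 ± 51.4 CPM in spinous-like and 1020 ± 349.5 CPM in granular-like nuclei. Its basal to granular log2 ratio averaged 1.77 (range over animals 1.22 to 2.31) and was above 0 in 6 of 6 animals. Without TMM factors PPARD was 980 ± 118 CPM in granular-like nuclei, so its spread over animals there depended on the scaling. PPARA, the receptor that drives fatty acid oxidation in liver, followed the direction of PPARG, with 36.6 ± 10.1 CPM in basal-like and 6.44 ± 3.69 CPM in granular-like nuclei. Its log2 ratio from basal to granular averaged -2.44 (range over animals -3.40 to -1.58) and was below 0 in 6 of 6 animals. The clusters were made from the same counts, and PPARG and FABP4 were among the genes used to make them, so the levels by layer and class given here are a description without a test.

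**Figure D1:**
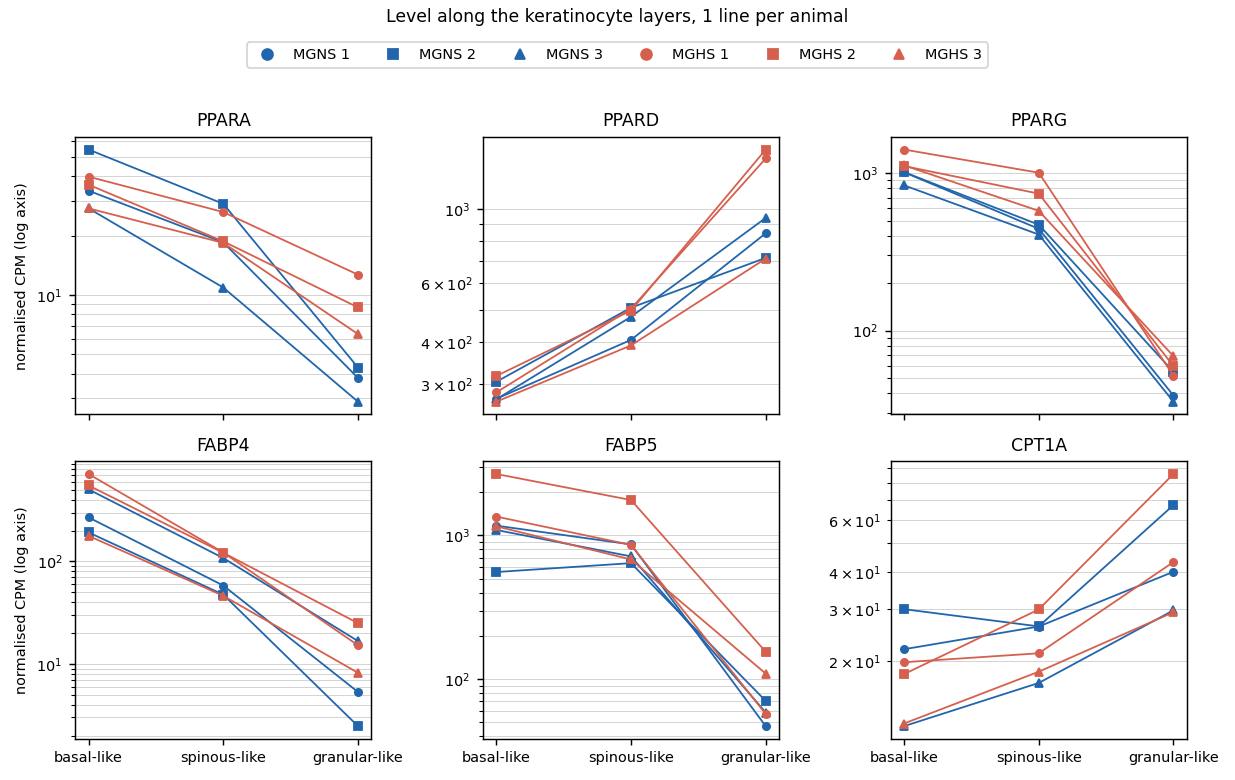
Normalised CPM (log axis) of PPARA, PPARD, PPARG, FABP4, FABP5 and CPT1A in basal-like, spinous-like and granular-like nuclei, with 1 line per animal (blue MGNS, red MGHS). PPARD and CPT1A are higher in granular-like than in basal-like nuclei in all 6 animals, and PPARA, PPARG, FABP4 and FABP5 are lower in all 6.

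Outside the epithelium the receptors were spread differently. PPARD came next to the keratinocyte layers in neutrophil-like nuclei, at 263 ± 74.1 CPM, and macrophage or dendritic-like nuclei, at 250.5 ± 67.5 CPM, and it was lowest in fibroblast-like nuclei, at 77.8 ± 12.8 CPM. The basal-like, neutrophil-like and macrophage or dendritic-like levels of PPARD did not differ by more than their SD. The part of keratinocyte RNA in the PPARD levels of neutrophil-like and macrophage or dendritic-like nuclei was not tested. PPARG was 403 ± 144 CPM in neutrophil-like nuclei and 202 ± 41 CPM in macrophage or dendritic-like nuclei, a cell type in which this receptor regulates lipid uptake. Lymphatic endothelial-like nuclei held 163 ± 55.9 CPM of PPARG and blood endothelial-like nuclei 63.1 ± 29.6 CPM, and the lymphatic value was higher in 6 of 6 animals. The PPARG level in blood endothelial-like nuclei was 5.82% of the basal-like level, while the 11 basal keratinocyte markers stood there at a median of 5.66% (range 2.12 to 367%) of theirs. In lymphatic endothelial-like nuclei PPARG stood at 15% of the basal-like level, beside a marker median of 10.7% (range 6.62 to 148%). In macrophage or dendritic-like nuclei the corresponding values were 18.6% for PPARG and a marker median of 8.1% (range 4.09 to 38.5%). In neutrophil-like nuclei they were 37.2% and 33.7% (range 23.3 to 94.4%). PPARG in the blood endothelial-like and neutrophil-like classes was thus near the level of keratinocyte markers in those nuclei, and a contribution of its own there cannot be told apart from free keratinocyte RNA. PPARA was second highest in smooth muscle or pericyte-like nuclei, at 25.9 ± 7.39 CPM, and its values in the classes ranked second to seventh lay within their SD of the next.

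**Figure D2:**
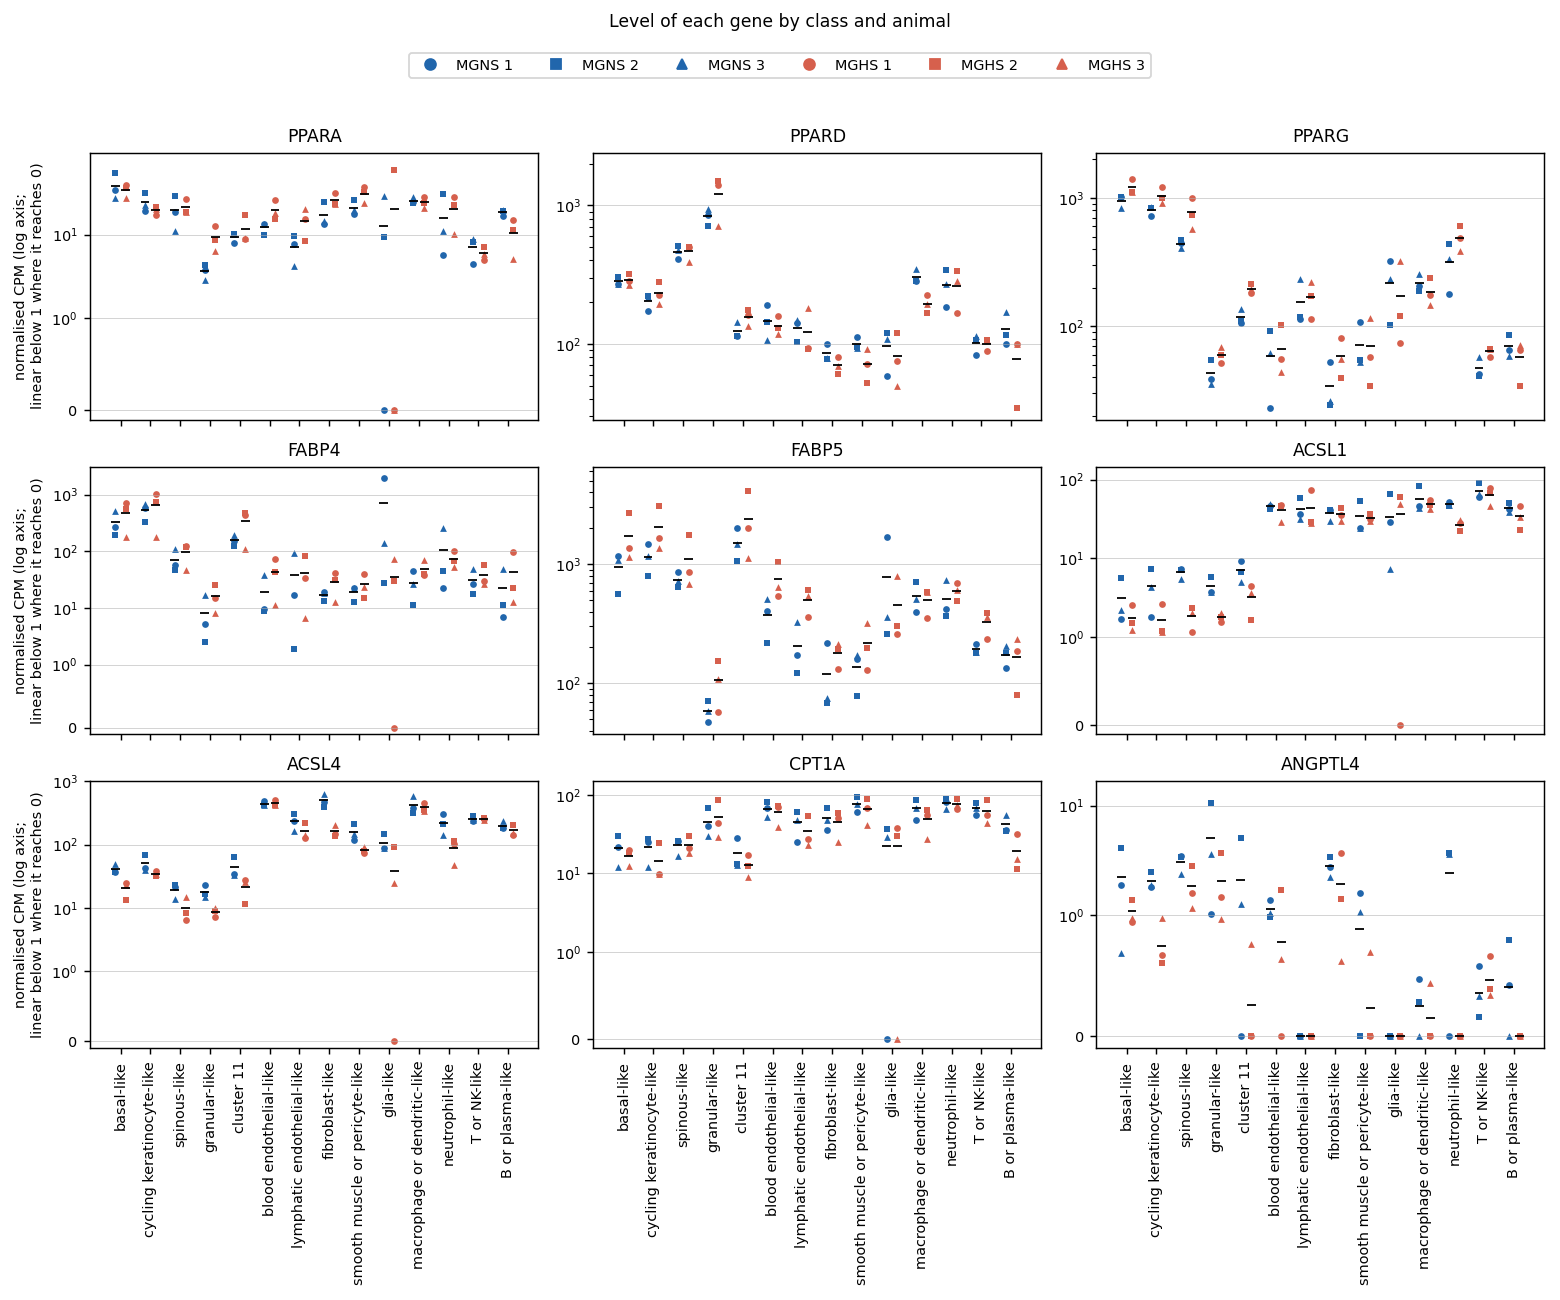
Normalised CPM (log axis, linear below 1 for genes that reach 0) of each of the 9 genes in the 14 fitted classes, with 1 point per animal (blue MGNS, red MGHS, marker shape by animal number) and a black bar for each group mean. PPARG, FABP4 and FABP5 are highest in keratinocyte-like classes or cluster 11, ACSL1 and ACSL4 are lowest in them, and ANGPTL4 lies near 0 in most classes.

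Between the groups, PPARG stood higher in MGHS in the lower keratinocyte layers, without passing the test. In spinous-like nuclei it was 443, 470.3 and 408 CPM in the MGNS animals and 1006, 741 and 576 CPM in the MGHS animals. The 3 MGHS values exceeded all 3 MGNS values, as for 10.1% of all genes tested there, and the log2 fold change was 0.81 ± 0.24 (SE), adjusted p = 0.212. DESeq2 gave PPARG there an adjusted p of 0.0419. In basal-like nuclei PPARG was 1013, 1015 and 837 CPM in the MGNS animals and 1411, 1109 and 1120 CPM in the MGHS animals, with no overlap (MGHS above in 10.5% of all genes) and a log2 fold change of 0.35 ± 0.22 (SE), adjusted p = 0.505. Cycling keratinocytes gave 0.37 ± 0.22, again without overlap (MGHS above in 10.1% of all genes). In granular-like nuclei the groups overlapped and the value was 0.48 ± 0.29. In cluster 11 PPARG was 106, 110.3 and 137 CPM in the MGNS animals and 182, 214 and 194 CPM in the MGHS animals, with a log2 fold change of 0.73 ± 0.20 (SE), adjusted p = 0.193 and MGHS above in 9.73% of all genes. Basal keratinocyte markers in cluster 11 summed to 2172 to 2692 CPM in MGNS and 3054 to 3694 CPM in MGHS, and spinous markers to 8270 to 10730 CPM in MGNS and 13740 to 15960 CPM in MGHS, both with MGHS above and without overlap, and their part in cluster 11 differences was not tested. T or NK-like nuclei, where the level was near that of keratinocyte RNA, gave 0.45 ± 0.19 (MGHS above in 5.91% of all genes). The difference of the PPARG effect between basal-like and spinous-like nuclei was 0.44 ± 0.15 (SE), adjusted p = 0.345, in a comparison where 0.0779% of genes passed. In all keratinocyte-like nuclei together PPARG was 536, 490.0 and 445 CPM in the MGNS animals and 706, 640.4 and 569 CPM in the MGHS animals, with a log2 fold change of 0.38 ± 0.22 (SE), adjusted p = 0.403, and the 3 MGHS animals lay above the 3 MGNS animals, as for 10.8% of genes. Scaled by total UMIs alone, without TMM factors, the groups overlapped in the basal-like, cycling and pooled keratinocyte nuclei. That scaling moved the median log2 fold change of all genes to -0.23 in all keratinocyte-like nuclei and to -0.34 in granular-like nuclei, from 0.02 and 0.0053.

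PPARA had higher values in MGHS in granular-like nuclei, where its level was lowest. In granular-like nuclei PPARA was 3.8, 4.29 and 2.88 CPM in the MGNS animals and 12.7, 8.65 and 6.34 CPM in the MGHS animals, from 288 UMIs in all. The MGHS animals lay above the MGNS animals, as for 9.9% of genes, and the log2 fold change was 1.33 ± 0.37 (SE), adjusted p = 0.165. The groups overlapped for PPARA in basal-like and spinous-like nuclei, and the difference of effect between basal-like and granular-like nuclei was 1.41 ± 0.31 (SE), adjusted p = 0.176, where 0.0% of genes passed. Between spinous-like and granular-like nuclei it was 1.15 ± 0.34 (SE), adjusted p = 0.304, and 0.0% of genes passed. PPARA in blood endothelial-like nuclei was 13.6, 9.8 and 13.4 CPM in the MGNS animals and 25.9, 15.3 and 18.4 CPM in the MGHS animals, without overlap (MGHS above in 9.16% of genes) and with a log2 fold change of 0.68 ± 0.35 (SE), adjusted p = 0.528. PPARD in granular-like nuclei was 845, 714 and 939 CPM in the MGNS animals and 1412, 1501 and 711 CPM in the MGHS animals. The first pair of MGHS animals stood above all others and the third below all others, and the log2 fold change was 0.53 ± 0.38 (SE), adjusted p = 0.507, or 0.07 when scaled by total UMIs. In basal-like and spinous-like nuclei PPARD gave 0.03 ± 0.16 and 0.00 ± 0.19. In macrophage or dendritic-like nuclei PPARD was 282, 284 and 349.6 CPM in the MGNS animals and 226, 168 and 192 CPM in the MGHS animals, with a log2 fold change of -0.64 ± 0.19 (SE), adjusted p = 0.613 and MGHS below in 5.71% of all genes.

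The binding protein genes FABP4 and FABP5 had their highest levels in keratinocyte-like nuclei and cluster 11. FABP4, which is known from fat cells, macrophages and capillary endothelium, was highest in cycling keratinocytes at 590.4 ± 305 CPM and basal-like nuclei at 401 ± 220.0 CPM. It was 83.9 ± 37.1 CPM in spinous-like and 12.1 ± 8.37 CPM in granular-like nuclei, and the basal to granular log2 ratio averaged -5.04 (range over animals -5.80 to -4.28). Blood endothelial-like nuclei held 30.9 ± 26.1 CPM of FABP4, or 7.7% of the basal-like level, beside a basal marker median of 5.66% (range 2.12 to 367%). Macrophage or dendritic-like nuclei held 38.5 ± 20 CPM, or 9.6%, beside a marker median of 8.1% (range 4.09 to 38.5%). FABP4 in these classes was thus close to the median of the keratinocyte markers in them. The mean of glia-like nuclei rested on 1 animal, MGNS 1, with 1936 CPM, while the other 5 animals lay between 0 and 138 CPM. FABP5, the epidermal binding protein, was highest in cluster 11 at 1961 ± 1121 CPM, in cycling keratinocytes at 1590 ± 782 CPM and in basal-like nuclei at 1334 ± 710.5 CPM, values within their SD of each other. It stayed at 921 ± 423 CPM in spinous-like nuclei and was 83 ± 41.4 CPM in granular-like nuclei. The step between these layers averaged -3.49 (range over animals -4.17 to -2.63) on the log2 scale. FABP5 stood further above the median of the keratinocyte markers in blood endothelial-like and macrophage or dendritic-like nuclei than FABP4. It was 561 ± 280.4 CPM in blood endothelial-like nuclei, or 42.1% of the basal-like level, and 522 ± 129.6 CPM in macrophage or dendritic-like nuclei, or 39.1%. Blood exceeded lymphatic endothelial-like nuclei, at 354 ± 192 CPM, in 6 of 6 animals. Within the macrophage or dendritic-like class, unscaled CPM of FABP5 averaged 766 in cluster 15 and 372 in cluster 14.

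FABP5 had higher means in MGHS in keratinocyte-like, endothelial and T or NK-like nuclei, without overlap in the endothelial and T or NK-like classes. In blood endothelial-like nuclei it was 401, 217 and 513 CPM in the MGNS animals and 541, 1050 and 647 CPM in the MGHS animals, with a log2 fold change of 0.99 ± 0.35 (SE), adjusted p = 0.396 and MGHS above in 9.16% of all genes. In lymphatic endothelial-like nuclei it was 174, 122 and 324 CPM in the MGNS animals and 362, 604 and 537 CPM in the MGHS animals. That difference was 1.29 ± 0.36 (SE), adjusted p = 0.374, with MGHS above in 7.59% of all genes. Without MGNS 3, the highest MGNS animal, it was 1.78 with an adjusted p of 0.0435 by edgeR. In T or NK-like nuclei it was 215, 179.6 and 184 CPM in the MGNS animals and 234, 389.5 and 362 CPM in the MGHS animals, a difference of 0.77 ± 0.20 (SE), adjusted p = 0.39, with MGHS above in 5.91% of all genes. The MGHS animals were higher in all 3 of these classes, and MGHS 2 was the highest of the 6 animals in each. Within the T or NK-like class, unscaled CPM of FABP5 did not overlap between groups in cluster 10 but overlapped in clusters 12 and 13. FABP5 in T or NK-like nuclei stood at 19.5% of its basal-like level, beside a basal marker median of 4.99% (range 2.03 to 28.4%). In basal-like nuclei FABP5 was 1170, 556 and 1092 CPM in the MGNS animals and 1353, 2677 and 1158 CPM in the MGHS animals. There MGHS 2 stood apart, the groups overlapped and the log2 fold change was 0.88 ± 0.40 (SE), adjusted p = 0.4. The sum of the 11 basal keratinocyte markers in blood endothelial-like nuclei was 1364 to 1559 CPM in MGNS and 1525 to 1739 CPM in MGHS, and in lymphatic endothelial-like nuclei it was 1378 to 2077 CPM in MGNS and 1595 to 2055 CPM in MGHS. These marker sums overlapped. Single basal markers stood at up to 367% of their basal-like level in blood and 148% in lymphatic endothelial-like nuclei. The sums therefore do not measure keratinocyte RNA alone, and its part in the FABP5 differences was not tested. Cycling keratinocytes gave 0.82 ± 0.34 (SE), adjusted p = 0.311 for FABP5 and all keratinocyte-like nuclei 0.70 ± 0.40 (SE), adjusted p = 0.396. The difference of the FABP5 effect between all keratinocyte-like and blood endothelial-like nuclei was 0.40 ± 0.33 (SE), adjusted p = 0.825 by edgeR, where 0.0% of genes passed. FABP5 was not called in any pair of classes compared in this way. FABP4 overlapped between groups in every class fitted. In basal-like nuclei it was 269, 192 and 505 CPM in the MGNS animals and 713, 551 and 178 CPM in the MGHS animals, so that MGHS 3 was the lowest and MGHS 1 the highest of the 6 animals. The log2 fold change there was 0.58 ± 0.53 (SE), adjusted p = 0.638. In cluster 11, where MGHS 3 also had the lowest FABP4 value, it was 1.099 ± 0.51 (SE), adjusted p = 0.439, and without that animal 1.51 with an adjusted p of 0.0301 by edgeR.

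The 2 acyl-CoA synthetase genes were distributed the other way, with higher levels outside the epithelium than in the keratinocyte layers. ACSL4, which prefers arachidonic and other polyunsaturated fatty acids and is known for its part in ferroptosis, was highest in blood endothelial-like nuclei at 449 ± 43.1 CPM and macrophage or dendritic-like nuclei at 408 ± 102 CPM. Fibroblast-like nuclei had 332 ± 203 CPM and T or NK-like nuclei 257 ± 16.9 CPM. Among the layers it was 30.6 ± 12.6 CPM in basal-like, 14.6 ± 6.68 CPM in spinous-like and 13.3 ± 5.88 CPM in granular-like nuclei. Blood endothelial-like nuclei exceeded lymphatic endothelial-like nuclei, at 199 ± 67.6 CPM, in 6 of 6 animals, by a log2 ratio of 1.23 (range over animals 0.47 to 2.00). ACSL1, the main long-chain synthetase of liver, fat and heart, was highest in T or NK-like nuclei at 68.1 ± 15.3 CPM and macrophage or dendritic-like nuclei at 53 ± 15.2 CPM. It lay between 33.2 and 43.5 CPM on average in the other stromal, endothelial, glial and immune classes. In the keratinocyte layers its mean was 2.49 to 4.28 CPM.

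ACSL4 showed the largest group difference relative to its error among the 9 genes. Its values were lower in MGHS in stromal and keratinocyte-like nuclei, and the groups overlapped in blood endothelial-like, T or NK-like and macrophage or dendritic-like nuclei. In fibroblast-like nuclei, 340 to 802 per animal, ACSL4 was 479.7, 391 and 634 CPM in the MGNS animals and 149, 135 and 202 CPM in the MGHS animals. The groups were far apart, and the log2 fold change was -1.63 ± 0.24 (SE), adjusted p = 0.0709, with MGHS below in 9.84% of all genes tested. This result missed the threshold, while DESeq2 (adjusted p = 1.21e-06) and limma-voom (adjusted p = 0.0245) placed it under 0.05. The adjusted p ranged from 1.21e-06 to 0.207 over all alternatives, and every one kept the direction. Both fibroblast-like clusters showed it in unscaled CPM. Cluster 0 had 366, 453 and 683 CPM in MGNS and 158, 154 and 226 CPM in MGHS, and cluster 7 had 809, 205 and 608 CPM in MGNS and 123, 86 and 140.3 CPM in MGHS. Fitted alone, they gave log2 fold changes of -1.46 ± 0.27 (SE), adjusted p = 0.112, and -2.14 ± 0.44 (SE), adjusted p = 0.0938. The 12 fibroblast markers summed to 16970 to 19560 CPM in MGNS and 22580 to 29680 CPM in MGHS in this class, without overlap. B or plasma markers, of a type whose own ACSL4 level was 184 ± 34.1 CPM, summed to 1765 to 2307 CPM in MGNS and 1067 to 1408 CPM in MGHS. In these nuclei the 12 B or plasma markers stood at a median of 1.23% of their B or plasma-like level (range 0.481 to 83.8%). Their sum can therefore rest on few markers and does not measure B or plasma RNA alone. T or NK markers summed to 262 to 644 CPM in MGNS and 255 to 376 CPM in MGHS, and macrophage or dendritic markers to 77 to 179.9 CPM in MGNS and 84.7 to 166 CPM in MGHS, both with overlap. Lymphatic endothelial markers summed to 302 to 414 CPM in MGNS and 136 to 263 CPM in MGHS, again with MGHS below, and lymphatic endothelial-like nuclei held 199 ± 67.6 CPM of ACSL4. The part of B or plasma and lymphatic endothelial RNA in the ACSL4 difference was not tested.

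**Figure D3:**
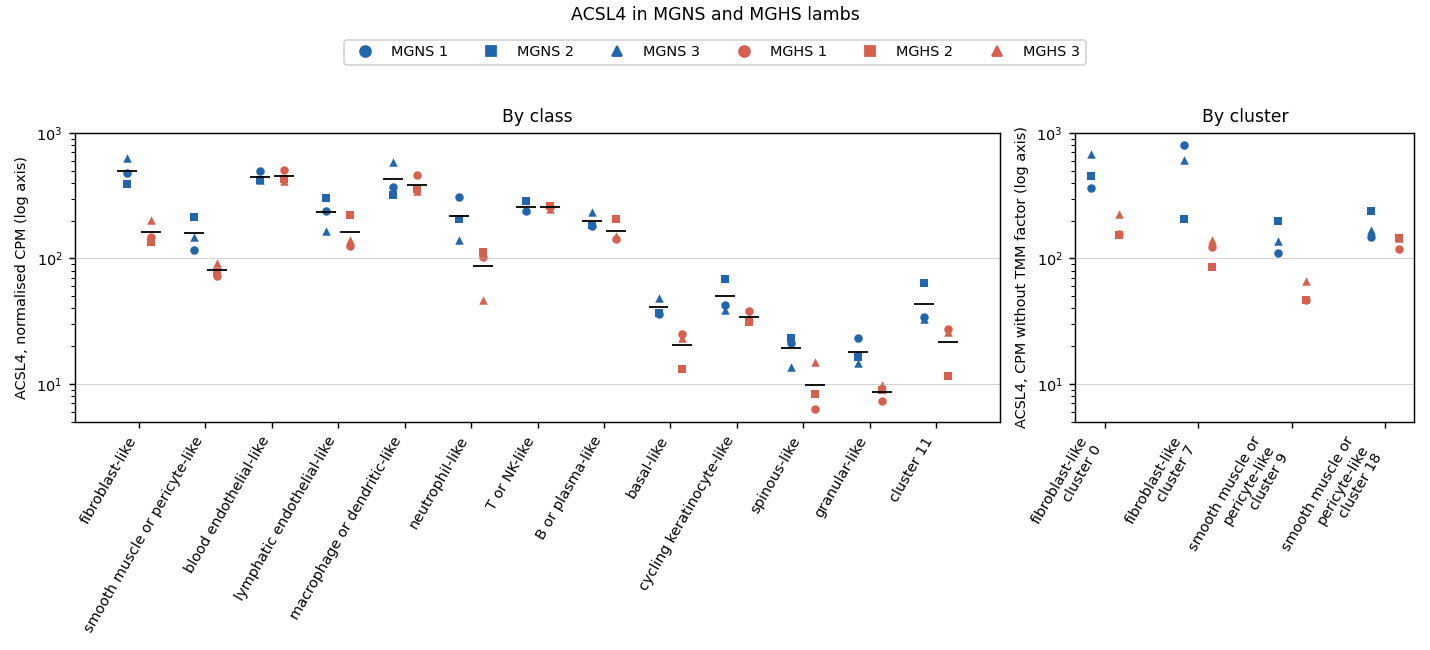
ACSL4 by class in normalised CPM (left, glia-like nuclei not drawn, black bars are group means) and by cluster for 2 classes in CPM without TMM factor (right), both on log axes, with 1 point per animal (blue MGNS, red MGHS). The groups are apart in fibroblast-like nuclei, where MGNS animals lie at 391 CPM or more and MGHS animals at 202 CPM or less, and overlap in blood endothelial-like, macrophage or dendritic-like and T or NK-like nuclei.

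In smooth muscle or pericyte-like nuclei ACSL4 was 117, 214 and 147 CPM in the MGNS animals and 72.5, 78.6 and 92.8 CPM in the MGHS animals. The groups did not overlap (MGHS below in 8.88% of genes), and the log2 fold change was -0.97 ± 0.24 (SE), adjusted p = 0.206. Of its 2 clusters, cluster 9 alone gave -1.45 ± 0.27 (SE), adjusted p = 0.170, and cluster 18 alone -0.39 ± 0.22 (SE), adjusted p = 0.654. Cluster 9 had 110.1, 199.7 and 137 CPM in MGNS and 46.8, 46.5 and 66.3 CPM in MGHS, without overlap, and cluster 18 had 147, 238 and 168 CPM in MGNS and 119.9, 145 and 146 CPM in MGHS. In neutrophil-like nuclei, 42 in the smallest library, ACSL4 was 309, 208 and 141 CPM in the MGNS animals and 102, 112 and 46.7 CPM in the MGHS animals, with -1.55 ± 0.46 (SE), adjusted p = 0.443 and MGHS below in 7.16% of genes. In basal-like nuclei it was 36.2, 37 and 48.8 CPM in the MGNS animals and 25, 13.2 and 23 CPM in the MGHS animals, with -1.001 ± 0.26 (SE), adjusted p = 0.242 and MGHS below in 10.3% of genes. Granular-like nuclei gave -1.04 ± 0.29 (MGHS below in 12.3% of genes), spinous-like nuclei -0.94 ± 0.35 with overlap, cycling keratinocytes -0.55 ± 0.25 (MGHS below in 10.0%) and cluster 11 -0.96 ± 0.36 (MGHS below in 8.99%). In all keratinocyte-like nuclei ACSL4 was 27.5, 26 and 27.5 CPM in the MGNS animals and 15.3, 12.2 and 18.4 CPM in the MGHS animals, a log2 fold change of -0.82 ± 0.19 (SE), adjusted p = 0.153, with MGHS below in 13.1% of genes. DESeq2 gave ACSL4 an adjusted p of 0.0234 there and 0.0420 in basal-like nuclei. ACSL4 in all keratinocyte-like nuclei stood at 8.22% of its T or NK-like level, beside a median of 2.08% (range 1.07 to 14.5%) for the 16 T or NK markers. Those markers summed there to 328 to 424 CPM in MGNS and 244 to 269 CPM in MGHS, with MGHS below and no overlap. They also lay below in MGHS without overlap in cycling, spinous-like and granular-like nuclei, and in basal-like nuclei they overlapped at 281 to 308 CPM in MGNS and 231 to 282 CPM in MGHS. Their part in the keratinocyte ACSL4 differences was not tested.

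By contrast, blood endothelial-like nuclei had 497, 421 and 419.6 CPM in the MGNS animals and 511, 429 and 417 CPM in the MGHS animals, with a log2 fold change of 0.02 ± 0.16 (SE), adjusted p = 0.977. T or NK-like nuclei had 238, 287 and 249 CPM in the MGNS animals and 256, 264 and 249 CPM in the MGHS animals, with -0.01 ± 0.14 (SE), adjusted p = 0.992, and macrophage or dendritic-like nuclei gave -0.14 ± 0.27. The difference of the ACSL4 effect between fibroblast-like and blood endothelial-like nuclei was 1.61 ± 0.28 (SE), adjusted p = 0.0994, where 0.0312% of genes passed. Between fibroblast-like and T or NK-like nuclei it was 1.57 ± 0.28 (SE), adjusted p = 0.263, where 0.0145% of genes passed. These 2 pairs of classes were chosen after the ACSL4 values were seen. Between all keratinocyte-like and blood endothelial-like nuclei it was 0.85 ± 0.26 (SE), adjusted p = 0.385, and 0.0% of genes passed. None of these differences was called.

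ACSL1 also had lower values in MGHS in pooled, spinous-like and granular-like keratinocytes, at a level of a few CPM. In all keratinocyte-like nuclei, with 410 UMIs in all, it was 3.7, 6.39 and 3.75 CPM in the MGNS animals and 1.96, 1.65 and 1.68 CPM in the MGHS animals. All 3 MGHS animals lay below all 3 MGNS animals, as for 13.1% of all genes, and the log2 fold change was -1.39 ± 0.32 (SE), adjusted p = 0.147. DESeq2 gave it an adjusted p of 0.0134. In spinous-like nuclei ACSL1 was 7.39, 7.19 and 5.45 CPM in the MGNS animals and 1.18, 2.39 and 2.07 CPM in the MGHS animals, with -1.81 ± 0.38 (SE), adjusted p = 0.147 and MGHS below in 10.7% of genes. In granular-like nuclei it was 3.8, 5.85 and 3.74 CPM in the MGNS animals and 1.58, 1.83 and 2.02 CPM in the MGHS animals, with -1.30 ± 0.37 (SE), adjusted p = 0.166 and MGHS below in 12.3% of genes. The groups overlapped for ACSL1 in basal-like nuclei and in cycling keratinocytes. Without TMM factors, basal-like nuclei had 1.72, 6.23 and 2.26 CPM in the MGNS animals and 2.58, 1.45 and 1.17 CPM in the MGHS animals. In T or NK-like nuclei, where ACSL1 was highest, the groups overlapped and gave -0.17 ± 0.24. ACSL1 in all keratinocyte-like nuclei stood at 4.68% of its T or NK-like level, beside a median of 2.08% (range 1.07 to 14.5%) for the 16 T or NK markers. Those markers summed in keratinocyte-like nuclei to 328 to 424 CPM in MGNS and 244 to 269 CPM in MGHS, without overlap, and 15 of the 16 had fold changes below 0, with a median of -0.89. Their part in the ACSL1 difference was not tested. In neutrophil-like nuclei ACSL1 was 51.5, 46.5 and 47.1 CPM in the MGNS animals and 27.9, 22.4 and 30.5 CPM in the MGHS animals, with -0.73 ± 0.47 (SE), adjusted p = 0.747 and MGHS below in 7.16% of genes.

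CPT1A, which attaches long-chain fatty acids to carnitine for entry into mitochondria and is a classic PPAR target, had its highest levels outside the epithelium. These levels, 77.2 ± 10.7 CPM in neutrophil-like, 71.7 ± 19.2 CPM in smooth muscle or pericyte-like, 64.2 ± 15.5 CPM in T or NK-like and 63.8 ± 15.7 CPM in blood endothelial-like nuclei, did not differ by more than their SD. In the epithelium it was 19 ± 6.67 CPM in basal-like, 23.1 ± 5.08 CPM in spinous-like and 49.2 ± 22.6 CPM in granular-like nuclei. It thus shared the direction of PPARD, with a basal to granular log2 ratio of 1.28 (range over animals 0.84 to 2.19). In granular-like nuclei CPT1A was 40, 67.3 and 29.6 CPM in the MGNS animals and 43.2, 85.7 and 29.2 CPM in the MGHS animals, so that animal 2 was the highest in both groups. The log2 fold change was 0.20 ± 0.47 (SE), adjusted p = 0.864 there and 0.14 ± 0.34 (SE), adjusted p = 0.851 in all keratinocyte-like nuclei, and the latter value was -0.15 when scaled by total UMIs. In B or plasma-like nuclei CPT1A was 36.1, 34.8 and 55.6 CPM in the MGNS animals and 31.8, 11.4 and 15.4 CPM in the MGHS animals, without overlap (MGHS below in 7.36% of genes) and with -0.85 ± 0.41 (SE), adjusted p = 0.697, in a class with 23 nuclei in the smallest library. PPARD in that class gave -0.52 ± 0.33, and in smooth muscle or pericyte-like nuclei -0.47 ± 0.23. Both had MGHS below without overlap, as for 7.36% and 8.88% of all genes. In unscaled CPM the groups overlapped for PPARD in clusters 6 and 17 of the first class and in clusters 9 and 18 of the second.

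ANGPTL4, which inhibits lipoprotein lipase and is a well-known PPAR target, was close to the detection limit. All keratinocyte-like nuclei held 311 ANGPTL4 UMIs, and granular-like nuclei had the highest mean, 3.54 ± 3.64 CPM. No UMI was found in lymphatic endothelial-like nuclei, which with 3 counts as the limit allows up to 0.941 CPM, or in glia-like nuclei, which allows up to 8.45 CPM. These limits cover counting error only. In granular-like nuclei ANGPTL4 was 1.01, 10.5 and 3.6 CPM in the MGNS animals and 1.45, 3.66 and 0.968 CPM in the MGHS animals. MGNS 2 stood apart, the other 5 animals overlapped, and the log2 fold change was -1.41 ± 0.80 (SE), adjusted p = 0.403. In all keratinocyte-like nuclei it was 1.98, 5.43 and 2.28 CPM in the MGNS animals and 1.31, 2.22 and 0.998 CPM in the MGHS animals, with -1.12 ± 0.50 (SE), adjusted p = 0.305. ANGPTL4 was tested in 3 of the 15 fits, having too few counts in the others.

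**Figure D4:**
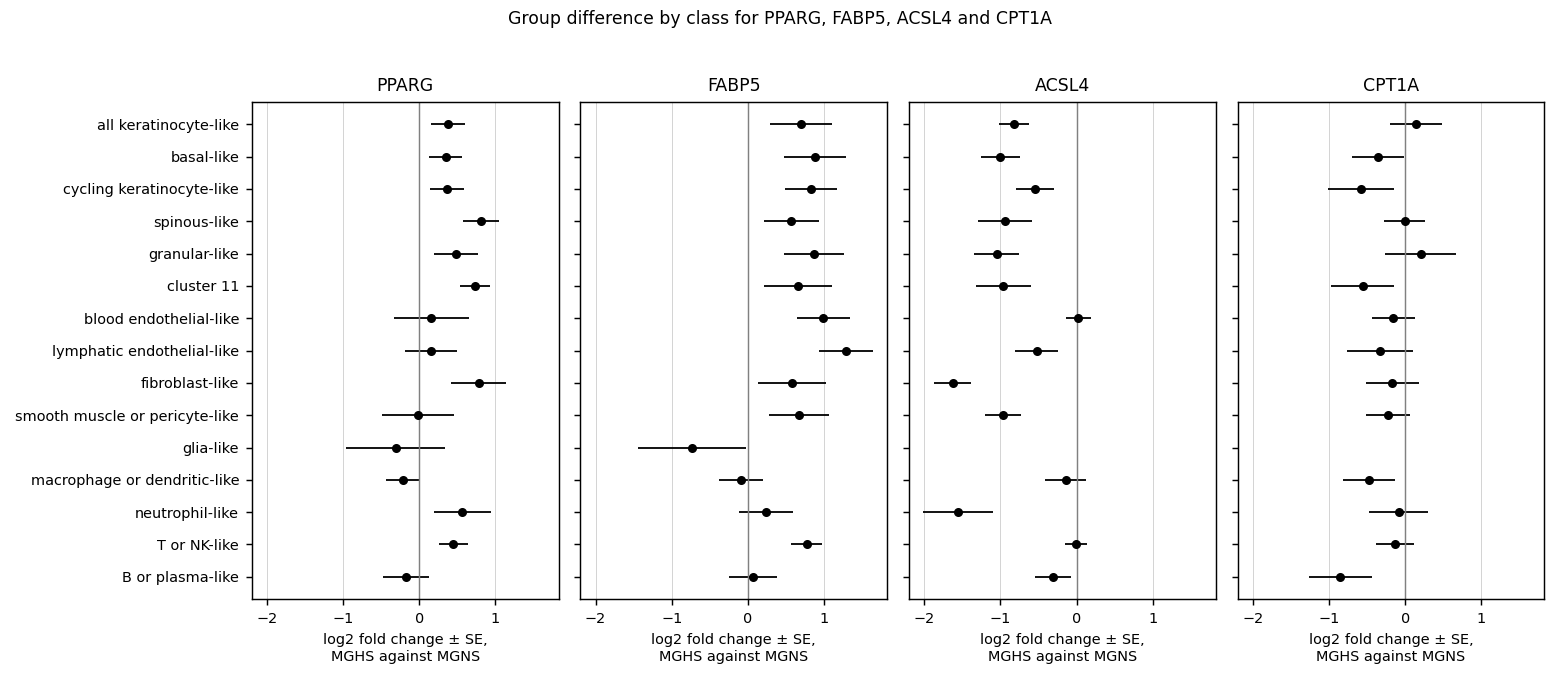
Log2 fold change ± SE of MGHS against MGNS (x axis) for PPARG, FABP5, ACSL4 and CPT1A in all keratinocyte-like nuclei and in each class where the gene was tested (y axis). ACSL4 lies at -1.63 in fibroblast-like nuclei and at 0.02 in blood endothelial-like nuclei. FABP5 lies above 0 in both endothelial classes, and also in all keratinocyte-like, basal-like, cycling and T or NK-like nuclei.

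Other genes of fatty acid metabolism, taken from 8 lists by function, were not called in 14 of the 15 fits. In cluster 11, 2 of the 74 list genes tested were called, beside 0.175% of all genes, and both are named here after their values were seen. PDK4, which restrains glucose oxidation when fatty acids are burned, fell there from 79.5 ± 13 CPM in MGNS to 25.8 ± 8.07 CPM in MGHS (SD over 3 animals each), with log2 fold change -1.70 ± 0.27 (SE) and adjusted p = 0.0324 by edgeR. Malic enzyme, ME1, which supplies NADPH for fatty acid synthesis, rose there from 102 ± 18.5 CPM in MGNS to 270.3 ± 36.3 CPM in MGHS (SD over 3 animals each), with log2 fold change 1.39 ± 0.22 (SE) and adjusted p = 0.0324 by edgeR. With animals left out in turn, the edgeR adjusted p of PDK4 there ranged from 0.0335 to 0.225 and that of ME1 from 0.0301 to 0.225. PDK4 missed the threshold without MGNS 1, 2 or 3 or MGHS 1, and ME1 missed it without any 1 animal other than MGHS 3. In all keratinocyte-like nuclei, where the shares of the layers also enter the values, 113 list genes were tested and none passed. Their median log2 fold change was 0.11 beside 0.02 for all genes, 11.5% had MGHS above without overlap beside 10.8% of all genes, and 8.85% had MGHS below beside 13.1%. The list of PPAR targets outside the other lists had 16 genes tested, 11 above and 5 below 0. Among them were CREB3L3, a liver and gut transcription factor of lipid metabolism, with 0.625 ± 0.263 against 10.7 ± 6.67 CPM, log2 fold change 4.13 ± 0.67 and adjusted p = 0.124. PDK4 had 104 ± 18.4 against 46.9 ± 6.34 CPM, log2 fold change -1.15 ± 0.20 and adjusted p = 0.133. GK, glycerol kinase, had 22.9 ± 11.6 against 5.13 ± 1.51 CPM, log2 fold change -2.15 ± 0.40 and adjusted p = 0.133. In these 3 genes the groups did not overlap. Of 13 peroxisomal beta oxidation genes tested, 8 lay above 0, and the thiolase ACAA1 had 28.3 ± 4.42 against 51.7 ± 4.86 CPM, log2 fold change 0.87 ± 0.18 and adjusted p = 0.141. The branched-chain oxidase ACOX2 had 11.2 ± 3.83 against 21.8 ± 5.72 CPM, log2 fold change 0.97 ± 0.31 and catalase, CAT, had 43.6 ± 3.88 against 59.4 ± 1.01 CPM, log2 fold change 0.45 ± 0.15.

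Of 22 genes of the carnitine shuttle and mitochondrial beta oxidation, 13 lay above and 9 below 0 in all keratinocyte-like nuclei. CRAT, carnitine acetyltransferase, had 8.48 ± 1.65 against 13.5 ± 1.22 CPM, log2 fold change 0.68 ± 0.21, the dehydrogenase ACADSB had 55.1 ± 19.4 against 90.1 ± 12.9 CPM, log2 fold change 0.71 ± 0.29, and the trifunctional protein subunit HADHB had 48.7 ± 1.46 against 37.8 ± 3.28 CPM, log2 fold change -0.37 ± 0.15. Of 15 uptake, binding and lipolysis genes, 11 lay above 0. The acyl-CoA binding protein DBI had 158 ± 17.7 against 298 ± 104 CPM, log2 fold change 0.92 ± 0.28, the triglyceride lipase PNPLA2 17.6 ± 1.44 against 26.8 ± 4.21 CPM, log2 fold change 0.61 ± 0.18 and the lipase maturation factor LMF1 11.6 ± 1.68 against 7.23 ± 1.74 CPM, log2 fold change -0.68 ± 0.24. Of 18 synthesis, desaturation and storage genes, 8 lay above and 10 below 0. Acetyl-CoA carboxylase, ACACA, had 55.6 ± 15.7 against 33.6 ± 6.84 CPM, log2 fold change -0.73 ± 0.25, ME1 had 290.2 ± 34.5 against 458 ± 114 CPM, log2 fold change 0.66 ± 0.26, and ELOVL4, which elongates very long chains, had 5.69 ± 4.66 against 1.6 ± 1.61 CPM, log2 fold change -1.79 ± 0.82. Of 11 activation and thioesterase genes, 5 lay above 0, with ACSF2 at 136 ± 38.7 against 194 ± 17.4 CPM, log2 fold change 0.51 ± 0.25, ACSL5 at 99.8 ± 23.3 against 73.6 ± 21.7 CPM, log2 fold change -0.44 ± 0.27 and ACSBG2 at 1.59 ± 0.0837 against 2.54 ± 1.2 CPM, log2 fold change 0.68 ± 0.41. Of 12 PPAR partners and co-regulators, 5 lay above 0, with PPARGC1B at 354 ± 47.8 against 269.7 ± 88.4 CPM, log2 fold change -0.39 ± 0.29 and MED1 at 39.5 ± 4.41 against 34.3 ± 1.03 CPM, log2 fold change -0.20 ± 0.16. The 9 capillary transport genes tested, 6 of them above 0, were at low levels there, such as CAV1 at 1.38 ± 0.729 against 2.63 ± 1.54 CPM, log2 fold change 0.98 ± 0.59, CAV2 at 5.21 ± 0.603 against 6.94 ± 2.53 CPM, log2 fold change 0.42 ± 0.30 and PLVAP at 2.44 ± 0.655 against 3.84 ± 1.59 CPM, log2 fold change 0.67 ± 0.39. The smallest adjusted p over all lists in these nuclei was 0.124.

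In blood endothelial-like nuclei 80 list genes were tested and none passed. The carnitine shuttle and mitochondrial beta oxidation list had 18 of 20 genes above 0, beside 4895 of 9469 for all genes. Its median was 0.32, beside 0.02 for all genes, and 8 of the 20 had MGHS values above all MGNS values, beside 9.16% of all genes. The median of this list was above 0 in every fit, with 0.31 in T or NK-like, 0.24 in smooth muscle or pericyte-like and 0.037 in B or plasma-like nuclei. The fits share the same 6 animals, the pooled keratinocyte fit repeats its single classes, and only 1 gene of the list was tested in glia-like nuclei. The electron transfer subunit ETFA had 47.8 ± 13.4 against 80.6 ± 5.29 CPM, log2 fold change 0.76 ± 0.24, the dienoyl-CoA reductase DECR1 8.91 ± 2.79 against 20.7 ± 7.13 CPM, log2 fold change 1.23 ± 0.40 and the dehydrogenase HADH 34.8 ± 8.41 against 56.2 ± 1.99 CPM, log2 fold change 0.69 ± 0.24. Among the 7 PPAR targets tested, 6 lay above 0. PDK4 had 282 ± 204 against 92.4 ± 45.5 CPM, log2 fold change -1.61 ± 0.58 and adjusted p = 0.419, in the same direction as in keratinocytes. The lipid droplet protein PLIN2 had 11.9 ± 2.26 against 18.1 ± 3.64 CPM, log2 fold change 0.60 ± 0.34. Of 9 capillary transport genes 5 lay above 0, with PLVAP at 969 ± 29.1 against 1273 ± 248 CPM, log2 fold change 0.40 ± 0.18, NRP1 at 1081 ± 297 against 1543 ± 394 CPM, log2 fold change 0.52 ± 0.25 and the lipoprotein lipase anchor GPIHBP1 at 33.2 ± 24.6 against 16.2 ± 14 CPM, log2 fold change -1.03 ± 0.73. Of 9 uptake and lipolysis genes 6 lay above 0, with MGLL at 69.3 ± 11.3 against 42.8 ± 16.7 CPM, log2 fold change -0.68 ± 0.28 and DBI at 85.5 ± 26.2 against 136 ± 62.5 CPM, log2 fold change 0.70 ± 0.36. Synthesis genes had 9 of 11 above 0, with AGPAT2 at 12.5 ± 6.22 against 22.4 ± 9.4 CPM, log2 fold change 0.86 ± 0.43, LPCAT3 at 11.4 ± 2.92 against 18 ± 4.56 CPM, log2 fold change 0.63 ± 0.37 and ME1 at 71.6 ± 24 against 93.2 ± 26.9 CPM, log2 fold change 0.41 ± 0.28. Peroxisomal genes had 7 of 9 above 0, with AMACR at 8.17 ± 1.74 against 13.9 ± 2.52 CPM, log2 fold change 0.78 ± 0.39 and EHHADH at 23.4 ± 3.92 against 31.8 ± 6.18 CPM, log2 fold change 0.44 ± 0.28. Activation genes had 2 of 7 above 0, with ACSL5 at 99.3 ± 15.3 against 74.9 ± 13.1 CPM, log2 fold change -0.40 ± 0.21, ACSF2 at 32.4 ± 16.1 against 52.1 ± 16.6 CPM, log2 fold change 0.70 ± 0.41 and ACOT7 at 15.8 ± 3.66 against 12.2 ± 2.02 CPM, log2 fold change -0.32 ± 0.35, and PPAR partners had 4 of 10 above 0, with NCOA1 at 223 ± 4.28 against 188 ± 30.7 CPM, log2 fold change -0.24 ± 0.17, MED1 at 59.8 ± 5.99 against 50.2 ± 2.32 CPM, log2 fold change -0.24 ± 0.20 and NRIP1 at 360.3 ± 136 against 300.1 ± 90.7 CPM, log2 fold change -0.26 ± 0.30.

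Each of the 9 genes was also compared with all genes reaching 20 CPM in at least 1 class by the Pearson correlation of log2 mean CPM over the 14 classes, which share libraries and differ in depth. The closest match to PPARG was the long non-coding gene LOC132658193 (r = 0.99), which lies inside the PPARG gene in the ARS-UI_Ramb_v3.0 gene table. Each gene of this pair has its own counts. No source used here states whether the counting was strand-specific, so how their overlapping reads were assigned is not known. Next to it came SLC26A2 (0.96), a sulfate transporter, and UGT1A4 (0.95), a glucuronosyltransferase. The annotation there places 2 long non-coding genes over PPARA and 1 over PPARD, with means of at most 12.8 CPM in any class. The nearest genes to PPARD were PIK3CB (0.93), LOC121818594 (0.91) and RSRP1 (0.91), and those to PPARA were FAM149A (0.90), TRIQK (0.89) and LOC132659203 (0.87). FABP4 was closest to TST (0.97), PNKD (0.97) and KRT15 (0.97), of which KRT15 is a basal keratin. FABP5 was closest to ALDOA (0.96), NDUFA8 (0.96) and HSBP1 (0.95), of which ALDOA is a glycolytic enzyme and NDUFA8 a subunit of respiratory complex I. ACSL1 was closest to ARHGEF6 (0.99), TRAFD1 (0.96) and PITPNC1 (0.96), and ACSL4 to MSN (0.95), HSPA1A (0.95) and PHACTR2 (0.94), of which MSN links the membrane to actin. CPT1A was closest to ANXA11 (0.93), JMJD1C (0.89) and GTF2B (0.88) and ANGPTL4 to LOC101115927 (0.88), EPHB3 (0.86) and SYNJ2 (0.82). Among the 9 genes themselves the correlations ran from -0.77 to 0.90.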

How the data were processed

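The deposited files held 10x Genomics UMI counts per gene and nucleus, written by Cell Ranger 8.0.0 per the file headers, while the submitters' processing notes name Cell Ranger 2.1.1. No source used here states the genome build, the annotation or the strand rule of the counting. All 26741 NCBI gene numbers matched symbols of the ARS-UI_Ramb_v3.0 gene table. Nuclei with under 300 genes or over 10% mitochondrial UMIs, and the 0.5% with most UMIs per library, were left out. By Scrublet scores 3661 doublets were removed. Where it marked under 0.5% of a library, the highest scores were removed at 0.8% per 1000 nuclei. That rule applied to MGNS 1 and MGNS 2, with 0% marked and 203 and 606 nuclei removed, and to no MGHS library. Scrublet marked 6.87 to 10.3% of the other libraries. Nuclei were clustered with Scanpy 1.11.5 (2000 variable genes, 30 principal components, Leiden resolution 0.8) and named by marker lists. Classes with 20 or more nuclei in each animal were summed per animal and tested with edgeR 4.0.16 (TMM, minimum count of 10), in R 4.3.3, and the test was checked on simulated data. Differences of effects between classes had the animal as a block. Alternatives used DESeq2 1.42.0, limma 3.58.1, other filters, scalings and clusterings, and each animal left out. Exact permutation of 3 against 3 animals cannot give a p below 0.1, so no such test was used. The genes and lists were chosen with earlier results of these data known. Genes named from the lists were the 3 with the smallest p per list in all keratinocyte-like and in blood endothelial-like nuclei, and some of these are not reported here.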

Additional observations from a re-analysis of the deposited data

How the results depend on the processing

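The edgeR count of called genes among the 9 was 0 in every reported fit and was higher under some alternatives. DESeq2 called 2 in all keratinocyte-like nuclei (ACSL1, ACSL4) and 1 each in basal-like (ACSL4), spinous-like (PPARG) and fibroblast-like nuclei (ACSL4). Without a filter on low counts 1 was called in each of blood endothelial-like, lymphatic endothelial-like and cycling nuclei (FABP5), cluster 11 and glia-like nuclei (FABP4) and fibroblast-like nuclei (ACSL4), and 1 in the differences of effect between basal-like and granular-like (PPARA), fibroblast-like and blood endothelial-like, and fibroblast-like and T or NK-like nuclei (ACSL4). In fibroblast-like nuclei 1 (ACSL4) was also called by limma-voom and without the 10% highest doublet scores. With animals left out in turn the count ranged from 0 to 1 in cluster 11 and in lymphatic endothelial-like nuclei. Animals with the same replicate number did not deviate together in all keratinocyte-like nuclei (correlations -0.134, -0.072 and 0.022). The labels do not say whether the numbers pair the animals, and so few values from 1 pooled class cannot exclude it. A replicate block gave 1 called gene in fibroblast-like nuclei, ACSL4 at -1.62 with an adjusted p of 0.0489 by edgeR, and PPARA in all keratinocyte-like nuclei at 0.031.

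Of 42 fold changes recomputed, 36 kept their direction throughout, and those that did not had reported values within their SE of 0. PPARA in all keratinocyte-like nuclei was 0.27 by limma-voom, 0.0054 at a minimum count of 30, and -0.21 to 0.28 with animals left out in turn, above 0 without MGNS 2 or MGHS 3. ACSL1 in T or NK-like nuclei ranged over -0.33 to 0.037 with animals left out, above 0 without MGNS 2 or MGHS 3. ACSL4 in blood endothelial-like nuclei was -0.0065 without a filter and -0.088 to 0.095 with animals left out, below 0 without MGNS 2, MGNS 3 or MGHS 1. In T or NK-like nuclei it was 0.036 by limma-voom, 0.016 at a minimum count of 30, 0.029 scaled by total UMIs, 0.026 without the 10% highest doublet scores, 0.0093 at Leiden resolution 1.5, and -0.061 to 0.074 with animals left out, above 0 without MGNS 2 or MGHS 3. ACSL4 in macrophage or dendritic-like nuclei ranged over -0.32 to 0.16 with animals left out, above 0 without MGNS 3. CPT1A in all keratinocyte-like nuclei was -0.15 scaled by total UMIs and -0.14 to 0.41 with animals left out, below 0 without MGNS 3 or MGHS 2. Over the 15 fits the number of genes called lay between 0 and 27 in the reported fits, 4 and 966 with DESeq2, 3 and 618 without a filter, 0 and 150 with the replicate block, 0 and 161 without MGNS 3 and 0 and 173 without MGHS 3. The causes of these changes were not tested. The class with the highest level changed for ANGPTL4 without MGNS 2 (spinous-like) and for CPT1A without MGHS 3 (smooth muscle or pericyte-like). B or plasma-like nuclei gave no value without the 10% highest doublet scores. Scaling by total UMIs, the single clusters and the fibroblast differences of effect were added after seeing the data. ME1 in cluster 11 was no longer called scaled by total UMIs, with the replicate block (adjusted p = 0.0664 by edgeR), in nuclei with at least 500 genes, without the 10% highest doublet scores or at Leiden resolution 1.5. Low counts limit the precision for ANGPTL4, keratinocyte ACSL1 and granular-like PPARA.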
